A study of Arabidopsis thaliana with 6 samples.

Results

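AT3G16670 and AT3G16660 are 2 nearby genes of the pollen Ole e 1 family on chromosome 3 of Arabidopsis thaliana. In the TAIR10.1 gene order only 2 genes of long noncoding RNAs lie between them. The platform annotation gives each gene of the pair 1 probe set of its own. They were chosen by their log2 difference between bzr1-1D and det2 on these same arrays, where earlier results had shown both lower in bzr1-1D. They are 2 of the 13286 genes with a named probe set, and their probe sets are 2 of the 22746 that are not controls. Since the contrast between the genotypes picked them out, their difference in that contrast is given as a description and not as a test.

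The 6 arrays came from whole seedlings of 2 mutants of Columbia-0. The bzr1-1D seedlings carry a dominant allele that keeps the transcription factor BZR1 active, and the det2 seedlings lack the steroid reductase needed to make brassinosteroid. Both genotypes had grown for 5 days at 22 °C in shaken liquid medium with sucrose under constant light and had then received 80% ethanol alone, the solvent, for 3 hours. Each array holds the pooled seedlings of a flask, and the genotypes were grown side by side in 3 experiments of different weeks, so each genotype has 3 arrays and each experiment has 1 array of either genotype. Wild-type arrays were not used here, so a difference between the mutants does not say which of them departs from the wild type. The authors had scaled every array to a target intensity of 500, which brings the arrays to a like brightness. Medians ran from 212.8 to 221.4, and 19.6% to 21.5% of probe sets were dimmer than 50.

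Ole e 1 is the main allergen of olive pollen, a small secreted glycoprotein with conserved cysteines. Plants have many genes for proteins with this domain, often joined to stretches rich in proline as in cell wall proteins, and many of them are active outside pollen. The family name therefore describes the protein and not the tissue. Brassinosteroids are the steroid hormones that drive cell elongation. Their signal ends on BZR1 and its relatives, which enter the nucleus and raise some genes while repressing others, among them the genes of brassinosteroid synthesis.

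AT3G16670 was the more changeable gene of the pair. In experiments 1, 2 and 3 its intensity in bzr1-1D was 148.6, 326.0 and 225.7, a mean of 233 ± 89.0 (SD, n = 3). In det2 it was 717.7, 3909.4 and 5216.8 in the same order, a mean of 3281 ± 2314 (SD, n = 3). The genotypes did not overlap, since the lowest det2 array, that of experiment 1, was above the highest bzr1-1D array, that of experiment 2. Among all probe sets, 5.58% had all 3 bzr1-1D arrays below all 3 det2 arrays. The det2 level was 4.83 times that of bzr1-1D in experiment 1, 11.99 times in experiment 2 and 23.1 times in experiment 3. The gap was thus open in every week, as a lower bzr1-1D array was for 15.5% of all probe sets, but its size differed several-fold between weeks.

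AT3G16660 had the same direction with a smaller gap. Over experiments 1, 2 and 3 its bzr1-1D arrays read 173.4, 213.7 and 153.6, a mean of 180 ± 30.6 (SD, n = 3). In det2 it was 524.9, 818.8 and 1041.7, a mean of 795 ± 259 (SD, n = 3). Again the lowest det2 array, of experiment 1, stood above the highest bzr1-1D array, of experiment 2. The det2 level was 3.03 times that of bzr1-1D in experiment 1, 3.83 times in experiment 2 and 6.78 times in experiment 3. For both genes the gap was narrowest in experiment 1 and widest in experiment 3.

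**Figure D1:**
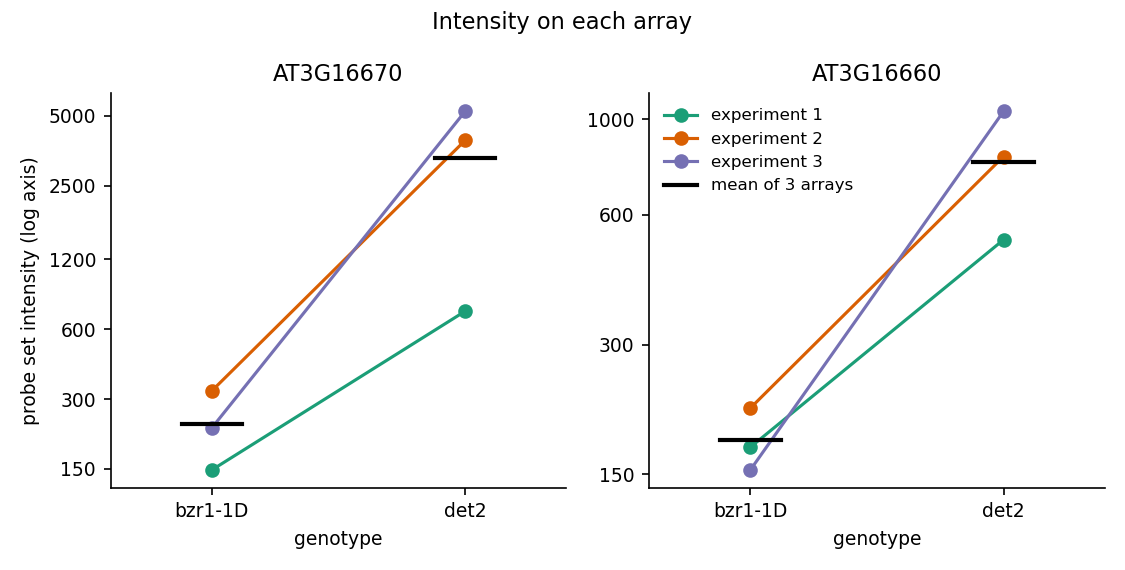
Intensity of AT3G16670 (left) and AT3G16660 (right) on each of the 6 arrays, on log axes that differ between the panels, with lines joining the bzr1-1D and det2 arrays of an experiment and black bars for the mean of 3 arrays. Each line is higher at det2 than at bzr1-1D, and the det2 array of experiment 1 is the lowest of its group for both genes.

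Differences are given as log2(intensity + 50), bzr1-1D minus det2, an offset that makes the gaps of dim genes look smaller than they are. They were -1.95, -3.40 and -4.26 for AT3G16670 in experiments 1, 2 and 3. The estimate over the experiments was -3.20 ± 0.46 (SE, n = 3). Each SE, here and below, is the moderated SE of the limma fit to all probe sets. It draws the variance of a gene toward that of all probe sets, so it is not the SE of the 3 differences alone. For AT3G16660 the differences were -1.36, -1.72 and -2.42, and the estimate was -1.84 ± 0.24 (SE, n = 3). The difference of AT3G16670 was the larger in each experiment, by 0.587 in experiment 1, 1.68 in experiment 2 and 1.83 in experiment 3 on the log2 scale. Counted from the most negative of 22746 probe sets, AT3G16670 had rank 5 for the estimate and ranks 12, 23 and 5 in experiments 1, 2 and 3. AT3G16660 had rank 27, with 62, 177 and 27 in the single experiments. These ranks are part of what singled the genes out. Over all probe sets, log2 differences of experiment 1 had an SD of 0.35, against 0.592 for experiment 2 and 0.469 for experiment 3. That SD was smallest for experiment 1, where the gaps of the pair were narrowest too. It was largest for experiment 2, whereas the gaps of the pair were widest in experiment 3. With 1 array of each genotype per experiment, the SD mixes noise between arrays with any genotype effect. How far the genotypes stood apart as a whole in each experiment was therefore not tested.

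No probe set passed the test between the genotypes. With limma, blocked by experiment and adjusted after Benjamini and Hochberg, 0 of 22746 reached an adjusted p under 0.05 (0%), while 1556 had an unadjusted p under 0.05 (6.84%), 932 lower in bzr1-1D (4.1%) and 624 higher (2.74%). Neither AT3G16670 nor AT3G16660 is therefore called as changed between the mutants. In whole seedlings, fewer cells that use a gene and less RNA in each of them cannot be told apart.

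The spread between experiments was mostly within det2. Across the 3 det2 arrays AT3G16670 ran over a 7.27-fold range, and of the 15492 probe sets with a mean of at least 100 in det2 only 1.41% had a wider one. Across the bzr1-1D arrays its range was 2.19-fold, with 12.97% of 15377 probe sets wider. AT3G16660 ranged over 1.99-fold in det2, where 16.9% were wider, and over 1.39-fold in bzr1-1D, where 55.8% were wider. AT3G16670 in det2 was thus among the probe sets that varied most between weeks, whereas AT3G16660 in bzr1-1D was near the middle. These same arrays entered the contrast that chose the genes, so the ranges are given as a description.

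The level over both genotypes, unlike their difference, was not used to choose the genes and could be tested between experiments. AT3G16670 was higher in experiment 2 than in experiment 1 by 1.64 ± 0.56 (SE) and higher in experiment 3 than in experiment 1 by 1.63 ± 0.56 (SE) on the log2 scale, while experiments 3 and 2 differed by -0.018 ± 0.56 (SE). It did not pass the F-test of limma over the 3 experiments (unadjusted p = 0.0558, adjusted p = 0.459). AT3G16660 had 0.42 ± 0.29 (SE) and 0.40 ± 0.29 (SE) for the same contrasts with experiment 1, and it did not pass either (unadjusted p = 0.353, adjusted p = 0.685). Of all probe sets 0 passed this test after adjustment (0%), and 2524 had an unadjusted p under 0.05 (11.1%). With 1 array of each genotype in an experiment, a genotype effect that differs between experiments could not be tested. The GAPDH control, whose 3′ to 5′ ratio reflects the completeness of the labelled RNA, also set experiment 1 apart. The ratio in experiment 1 was 0.757 for bzr1-1D and 0.80 for det2, against 0.461 to 0.496 on the remaining arrays, and its part in the lower det2 values of experiment 1 was not tested.

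Over the 6 arrays the levels of the pair varied together. The Pearson correlation of their log2 values was 0.969 (n = 6 arrays), a description with no test, since the arrays share the genotype contrast that chose both genes. Among the 8720 other single-gene probe sets with a mean of at least 100 in either genotype, AT3G16660 ranked 25 in likeness to AT3G16670, and AT3G16670 ranked 26 in likeness to AT3G16660. A correlation above 0.9 with AT3G16670 was found for 2.29% of these genes, and with AT3G16660 for 1.55%. After the genotype means were taken out, the correlation between the pair was 0.933 over the 6 arrays. By that measure 3.03% of genes were at least as like AT3G16670. The correlation of the pair was 0.976 within the det2 arrays and 0.620 within the bzr1-1D arrays (n = 3 arrays each). With so few arrays, a difference between these correlations was not tested. The order of the det2 arrays was the same in both genes, experiment 1 below 2 below 3. In bzr1-1D both genes were highest in experiment 2, but AT3G16670 was lowest in experiment 1 and AT3G16660 in experiment 3.

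**Figure D2:**
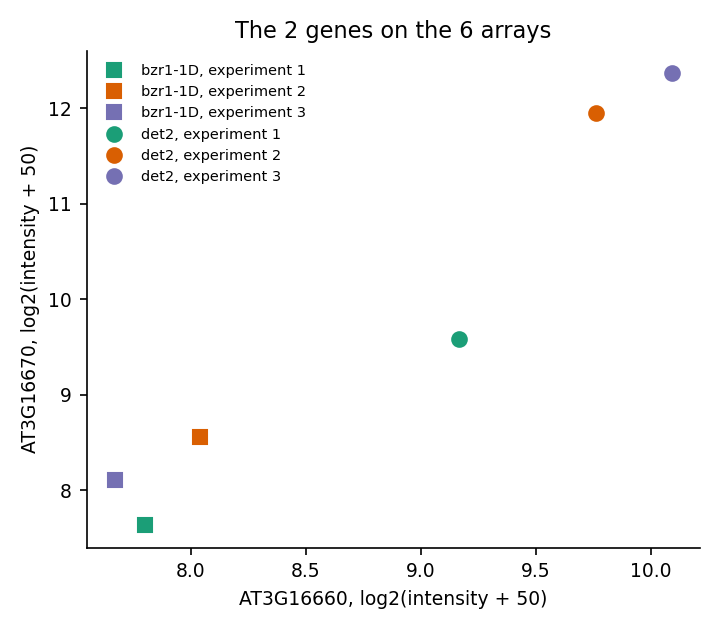
Level of AT3G16670 against AT3G16660 on the 6 arrays, both as log2 of intensity plus 50, with squares for bzr1-1D, circles for det2 and a colour for each experiment. The 3 bzr1-1D arrays lie together at the lower left and the det2 arrays stretch out in the order of experiments 1, 2 and 3, with a correlation of 0.969 over all 6.

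The 5 genes whose pattern was most like AT3G16670 had correlations from 0.986 to 0.994, but moved over a much narrower range. They were LUL2, a ubiquitin ligase of the RING type, AT3G22970, AT3G01560, AT5G04460 and AT1G24040. LUL2, the first of them, had 213 ± 29.9 (SD, n = 3) in det2 against 153 ± 4.62 (SD, n = 3) in bzr1-1D. AT1G24040 had the widest gap of the 5, with 157 ± 16.8 (SD, n = 3) in bzr1-1D against 509 ± 161 (SD, n = 3) in det2 and a log2 difference of -1.39 ± 0.18 (SE). The genes most like AT3G16660 had correlations from 0.988 to 0.994 and were AT3G05730, which encodes a small defensin-like protein, AT3G01520, AT5G04460, AT5G49390 and TBL25, of a family linked to acetylation of wall polysaccharides. AT3G05730 stood at 2406.4, 2289.5 and 2074.3 in bzr1-1D and at 4081.7, 5107.0 and 5960.4 in det2 in experiments 1, 2 and 3. AT3G05730 was picked by its correlation over these same arrays, which favours the det2 order that it shares with the pair. Its log2 difference was -1.13 ± 0.19 (SE). AT5G04460 was on both lists. None of these genes passed the test between genotypes, with limma adjusted p from 0.696 to 0.732.

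The other measured members of the family differed in both directions, with smaller estimates than the pair. Of 20 further genes known to encode proteins of the Ole e 1 family, 13 had a named probe set, and 10 of these were lower and 3 higher in bzr1-1D, with a median log2 difference of -0.27 against -0.0118 over all probe sets. After adjustment 0 of the 13 passed limma's test, and 2 had an unadjusted p under 0.05, both lower in bzr1-1D, where 4.1% of all probe sets were. The groups did not overlap for 4 of the 13, 2 lower and 2 higher, against 5.58% and 3.74% of all probe sets. The differences ran from -1.05 to 0.48, so none reached that of AT3G16660.

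AT5G10130 came nearest to the pair. In experiments 1, 2 and 3 its bzr1-1D arrays read 316.1, 146.5 and 479.0 and its det2 arrays 390.0, 831.3 and 812.5. The bzr1-1D array was the lower in each experiment, though the groups overlapped, with log2 differences of -0.27, -2.17 and -0.71, the second of which exceeded that of AT3G16660 in size, and an estimate of -1.05 ± 0.39 (SE; limma, unadjusted p = 0.0488, adjusted p = 0.726). Without experiment 2 the estimate was -0.49. AT2G47540 had log2 differences of 0.07, -1.62 and -0.70, with an estimate of -0.75 ± 0.34 (SE), and without experiment 2 it was -0.32. AT2G34700 had 116 ± 42.6 (SD, n = 3) in det2 against 63.2 ± 38.5 (SD, n = 3) in bzr1-1D, and in experiment 1 it was the higher in bzr1-1D. AT5G10130 and AT2G47540 had their widest gap in experiment 2, not in experiment 3 as the pair did. For AT2G34700 the log2 differences of experiments 2 and 3 were nearly equal, at -1.05 and -1.02.

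AT2G16630, known as FOCL1, a proline-rich wall protein of the cuticular ledges over stomatal pores, had the most even difference of the family. Its log2 differences were -0.60, -0.56 and -0.53, and the estimate was -0.56 ± 0.12 (SE; limma, unadjusted p = 0.0068, adjusted p = 0.70). Its groups overlapped nonetheless, because both genotypes were lower in experiment 3 than in experiment 1, at 455.9 against 889.8 in bzr1-1D and at 682.2 against 1371.7 in det2 (limma F-test over experiments, adjusted p = 0.338). AT1G78040 differed by -0.03 ± 0.13 (SE), a bright probe set with 10080 ± 2791 (SD, n = 3) in det2 against 9854 ± 2334 (SD, n = 3) for bzr1-1D.

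SAH7 (AT4G08685) and AT3G26960 lay on the other side. SAH7 averaged 3771 ± 119 (SD, n = 3) in bzr1-1D against 2978 ± 577 (SD, n = 3) in det2, and AT3G26960 at 195 ± 19.3 (SD, n = 3) against 129 ± 38.9 (SD, n = 3). Both were higher in bzr1-1D in each experiment, as 12.4% of all probe sets were, without overlap of the groups, and their gap, like that of the pair, was narrowest in experiment 1 and widest in experiment 3. Their log2 differences were 0.35 ± 0.17 (SE) and 0.48 ± 0.20 (SE), and limma gave neither an unadjusted p under 0.05. Without experiment 3 they were 0.18 and 0.27. AT5G15780 (-0.32 ± 0.17, SE), AT5G13140 (-0.27 ± 0.23, SE), AT5G41050 (-0.33 ± 0.17, SE) and AT5G22430 (-0.15 ± 0.13, SE) had small negative estimates. AT5G41050 and AT5G22430 were the 2 genes of the 13 that were lower in bzr1-1D without overlap of the groups, as 5.58% of all probe sets were. AT5G15780 and AT5G13140 were the higher in bzr1-1D in experiment 1, by 0.05 and 0.07, and without experiment 2 the estimates of AT5G15780, AT5G13140 and AT5G41050 were -0.20, 0.02 and -0.15. AT1G29140 and AT5G45880 were dim, with means between 19.5 and 47.1. AT1G29140 too was higher in bzr1-1D in each experiment, though its groups overlapped. Its estimate of 0.23 ± 0.13 (SE) was 0.61 with no offset. AT5G45880 had an estimate of -0.16 ± 0.18 (SE).

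**Figure D3:**
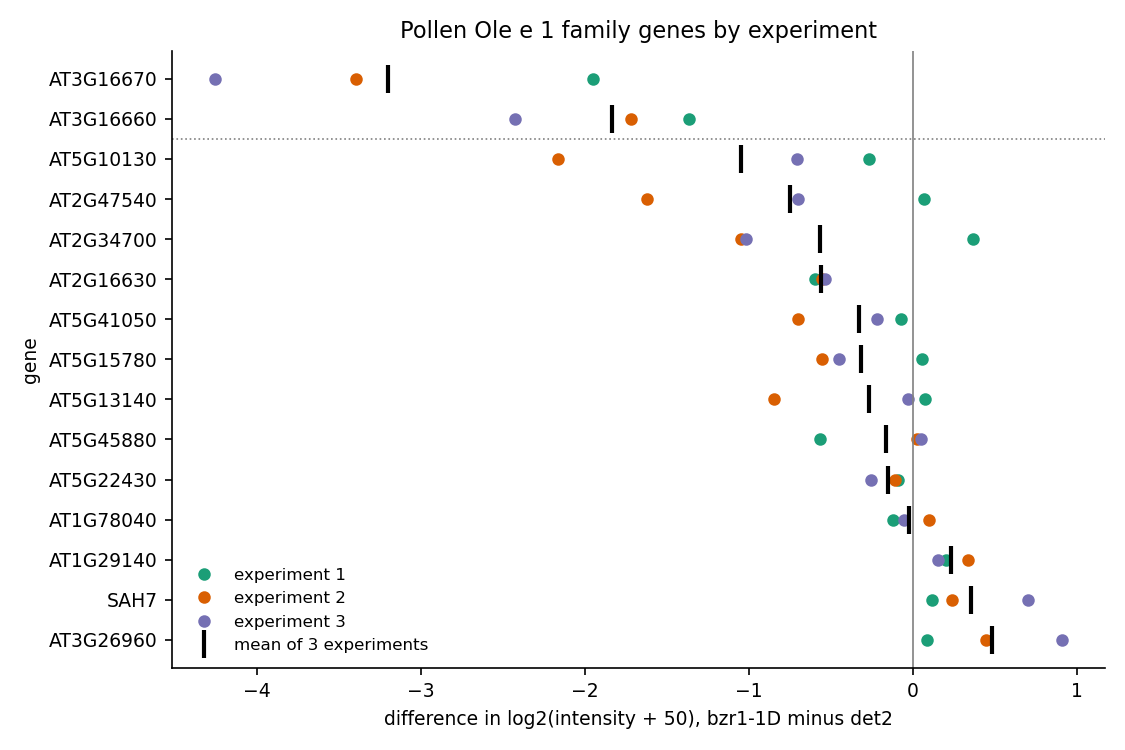
Difference in log2 of intensity plus 50, bzr1-1D minus det2, for AT3G16670 and AT3G16660 (above the dotted line) and the 13 other measured Ole e 1 family genes, with a point for each experiment and a black bar for their mean. The means of the pair are -3.20 and -1.84 and those of the others lie between -1.05 and 0.48, but in experiment 2 AT5G10130 (-2.17) is below AT3G16660 (-1.72).

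The genes measured around the pair on chromosome 3 differed in both directions. With the offset of 50 their estimates were smaller than those of the pair, though with no offset the dim gene AT3G16750 exceeded AT3G16660. Of the 20 genes before and the 20 after it in the TAIR10.1 gene order, 16 had a named probe set, 6 higher and 10 lower in bzr1-1D, with a median log2 difference of -0.07. None of them passed after adjustment, while limma gave 2 of the 16 an unadjusted p under 0.05, 1 in each direction, against 6.84% of all probe sets. Between the pair itself the annotation places 2 genes of long noncoding RNAs, 0 of which have a named probe set. The nearest measured gene is AT3G16680, next to AT3G16670, with 29.2 ± 4.18 (SD, n = 3) in det2 against 26.9 ± 13.8 (SD, n = 3) in bzr1-1D. It was dim in both mutants, with a log2 difference of -0.06 ± 0.14 (SE).

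SWEET16, a sugar transporter of the vacuole and the next gene along, was at 162.1, 131.4 and 538.8 in bzr1-1D and at 375.7, 579.9 and 385.5 in det2 in experiments 1, 2 and 3. Thus bzr1-1D was the lower in experiments 1 and 2 but the higher in experiment 3, and its estimate of -0.79 ± 0.44 (SE) was -0.29 without experiment 2 and -1.40 without experiment 3. On the other side, KINESIN-13A, a microtubule motor, had a log2 difference of -0.01 ± 0.14 (SE) and AT3G16610 one of 0.19 ± 0.15 (SE). AT3G16750 had 73.8 ± 9.03 (SD, n = 3) in det2 against 19.5 ± 22.8 (SD, n = 3) in bzr1-1D, and a log2 difference of -0.88 ± 0.19 (SE; limma, unadjusted p = 0.0067, adjusted p = 0.70) that was -2.60 with no offset, against -2.10 for AT3G16660. The det2 level of this dim gene was 1.74 times that of bzr1-1D in experiment 1, less than for AT3G16660. In experiments 2 and 3 it was 12.68 and 10.05 times, more than for AT3G16660. Those larger ratios rest on very dim bzr1-1D intensities of 5.0 and 7.8. AT3G16530, a lectin of the legume type, went the other way, with 5026 ± 3003 (SD, n = 3) in bzr1-1D against 2369 ± 1128 (SD, n = 3) in det2 and log2 differences of 0.24, 1.35 and 1.57 (limma, unadjusted p = 0.0183, adjusted p = 0.70).

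**Figure D4:**
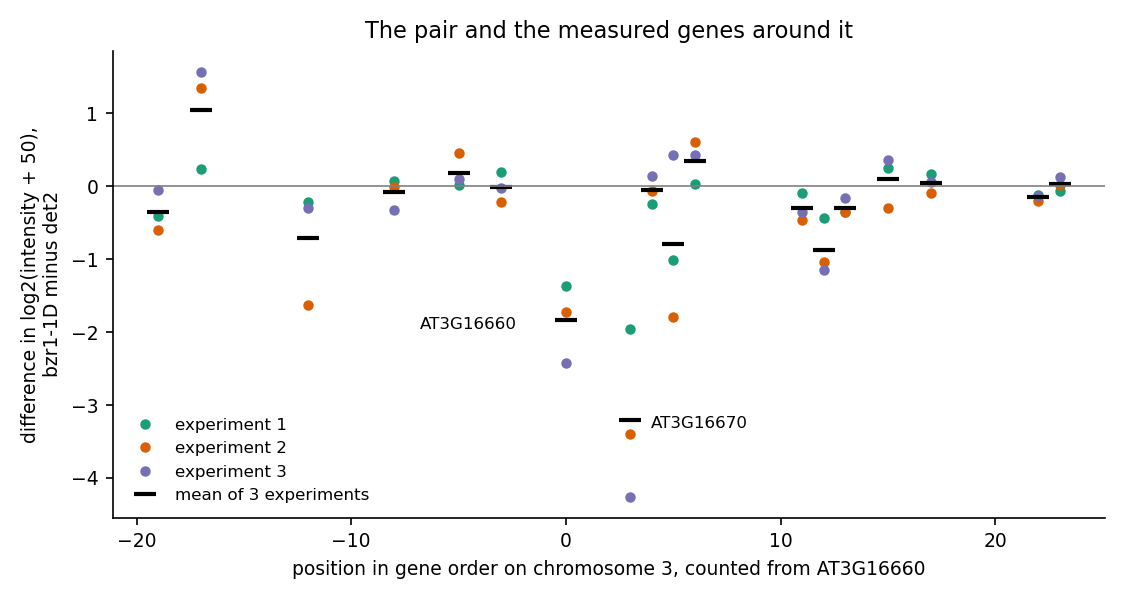
Difference in log2 of intensity plus 50, bzr1-1D minus det2, by position in the gene order of chromosome 3, counted from AT3G16660, with a point for each experiment and a black bar for their mean. AT3G16660 and AT3G16670 drop to -1.84 and -3.20, while the means of the 16 measured genes around them lie between -0.88 and 1.05.

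Markers of other tissues were measured only in part. Of the marker lists, 2 of 11 genes of root hairs, 5 of 12 of pollen, 0 of 18 of the root and 0 of 14 of green tissue had a named probe set, so the share of root and shoot in the samples could not be checked. The root hair expansins EXPA7 and EXPA18, which loosen the walls of these cells, were 2 of 2 lower in bzr1-1D, as 11929 of all 22746 probe sets were, with 117 ± 64.8 (SD, n = 3) against 227 ± 27.0 (SD, n = 3) and 148 ± 56.1 (SD, n = 3) against 239 ± 46.9 (SD, n = 3). Their summed intensity ran from 130.8 to 333.1 in bzr1-1D and from 419.7 to 549.0 in det2. Neither gene's groups overlapped, against 5.58% of all probe sets in that direction, and limma gave unadjusted p of 0.0543 and 0.10 (adjusted p = 0.726 and 0.743). Their gap was widest in experiment 2 (-1.71 and -1.32 on the log2 scale), and in experiment 3, where the pair differed most, it was -0.52 and -0.03. With experiment 2 left out, their estimates moved from -0.82 and -0.57 to -0.37 and -0.20. Their part in the difference of the pair was not tested.

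Of the pollen markers, ANX1 and ANX2, receptor kinases of the pollen tube, MGH3, a histone of sperm cells, and ACT12, a pollen actin, were at 36.7 or below on every array. TUA1, a tubulin of pollen, was between 488.6 and 587.4 on the 6 arrays and differed by -0.11 ± 0.14 (SE). The intensity of AT3G16670 and AT3G16660 was thus found in seedlings in which 4 of 5 measured pollen markers were below 50. Of 24 genes of brassinosteroid synthesis and signalling, 3 had a named probe set, BZR1 and DET2 not among them, so the mutated genes are not analysed here. BRL1, a receptor of the brassinosteroid receptor family, BIM1, a partner of a BZR1 relative, and CES, a transcription factor of the pathway, had log2 differences of 0.07 ± 0.15 (SE), -0.03 ± 0.16 (SE) and 0.03 ± 0.14 (SE), and 0 of 3 passed limma's test or had an unadjusted p under 0.05. CES was dim, between 10.6 and 23.7 on the 6 arrays, so that its log2 difference is held near 0 by the offset.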

How the data were processed

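Probe set intensities of 6 Affymetrix ATH1 arrays, 1 sample each, were used. Per the labels, 15 µg of labelled cRNA was hybridised to each array and the authors obtained the intensities with GCOS 1.1 at a target intensity of 500; with the top and bottom 2% of values removed, every array averaged 500.0. The labels also describe division by a percentile and by the wild type in GeneSpring 7.0, but the deposited values are intensities before that step. No detection calls were used.

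Intensities were raised by 50 and log2-transformed, with no further scaling and no filter. Of 22810 probe sets, 64 controls were left out. Of the 22746 tested, 13513 have 1 gene in the platform annotation, 503 have several and 8730 have none; 13436 were matched to a locus of the TAIR10.1 gene table, 13286 genes in all. The table was used for names and gene order. A gene with several probe sets was taken by its plain _at probe set.

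Genotypes, and in the same fit experiments, were compared with limma 3.58.1 in R 4.3.3 (two-sided, Benjamini-Hochberg over all probe sets), which was tested on simulated data. Those simulated data held no genotype effect that differs between experiments, so they do not show how the fit deals with one. Same-numbered arrays are paired because the labels place both genotypes in the same experiments; their deviations from the genotype means correlated by 0.387, 0.08 and 0.373 in experiments 1, 2 and 3 and by -0.371 to 0.107 between experiments. The labels call the arrays biological replicates; 3 per genotype limit the precision. The members and lists were chosen with earlier results of these data known. The gene table has no descriptions, so the family list rests on general knowledge. Named were both members, all measured family genes, the 2 nearest measured neighbours on either side and those with an unadjusted p under 0.05, the 5 genes most like each member, and up to 4 of each other list, the brightest; ANX1, ANX2, MGH3, ACT12 and TUA1 are 5, so that no pollen marker was left out. Figures were drawn with matplotlib 3.10.9.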

Additional observations from a re-analysis of the deposited data

How the results depend on the processing

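The log2 difference of AT3G16670 stayed between -3.83 and -2.67 and that of AT3G16660 between -2.10 and -1.54 over 12 alternatives: no replicate block, the block as a random effect, an offset of 16 or none (floor 0.1), quantile normalization, median centring, a mean intensity of at least 100, robust eBayes, an intensity trend, and leaving out each experiment (-3.83 to -2.67 and -2.07 to -1.54). Over all probe sets limma called 0 at an adjusted p under 0.05 with the replicate block; it called 1 once the pairing was ignored (no replicate block) and 1 where the block was random, in both cases a probe set of neither gene, and the cause was not tested. Without an experiment it was from 0 to 0, while the count at an unadjusted p under 0.05, 1556 with all, ran from 768 without experiment 3 to 2222 without experiment 1. The block changed no other call. In the experiment test the adjusted p of AT3G16670 ran from 0.317 to 1 and that of AT3G16660 from 0.585 to 1 over 10 alternatives, and 0 probe sets passed. The correlation between the pair was 0.943 by Spearman and from 0.954 to 0.998 without an experiment, the last chosen after seeing the data. The family's median difference ran from -0.44 to -0.17, with 3 of 13 genes changing sign when an experiment was left out. The neighbours' median was -0.20 with no offset and from -0.14 to -0.0844 without an experiment, and 6 of 16 changed sign. In each alternative 0 genes of either list passed.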
